A study of Mus musculus with 31 samples.

Results

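The regions described here are H3K27ac islands of Nkx2-1-deleted mouse lung adenocarcinomas that were absent from Nkx2-1-positive tumors and lay where the positive tumors carried H3K27me3. An island is a stretch in which the authors' caller found more reads of a histone mark than background. A region was taken when its deleted-tumor H3K27ac island, on chromosomes 1 to 19, overlapped no positive-tumor H3K27ac island and shared at least 1 bp with a positive-tumor H3K27me3 island. Of 61981 deleted-tumor H3K27ac islands, 60744 were autosomal, and 6530 of these (10.8%) had no H3K27ac counterpart in positive tumors. Of these new islands, 1057 (16.2%) met the rule, and they are called the Polycomb-site islands below. The regions were thus chosen by 3 deposited lists, H3K27ac of both tumor types and H3K27me3 of positive tumors, and what these lists fix is not a result.

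Chromatin immunoprecipitation and sequencing were done on tumors that kept or had lost Nkx2-1, a homeodomain factor that specifies lung epithelium. H3K27ac, H3K27me3, H3K4me1, H3K4me3 and Foxa1/2 (both forkhead factors with 1 antibody) were measured in both tumor types, and Nkx2-1 in positive tumors. Of 31 libraries, 9 were inputs and the other 22 made up 11 groups of 2, but the pair of lists deposited for a group never differed in content, so a group counted as 1 merged list. The mice had a mixed 129/B6 background and were 4 to 7 months old. The labels state that adenovirus or lentivirus was given through the trachea to start tumors and that tamoxifen was injected. They record Nkx2-1 status as deleted or positive and name neither the alleles nor the cells in which they act. Each histone group held 1 male and 1 female, whereas the Foxa1/2 libraries of positive tumors were both male and those of deleted tumors both female, so tumor type and sex cannot be told apart for Foxa1/2. Whole tumors were pulverized, and whether marks at 1 site lay in the same cells was not tested. For the same reason, a mark in more cells and more of a mark per cell cannot be told apart.

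H3K27me3 is laid down by Polycomb repressive complexes and marks silenced genes, among them many developmental regulators. H3K27ac sits on the same lysine and marks active enhancers and promoters, so both cannot occupy the same histone tail. H3K4me1 is typical of enhancers and H3K4me3 of promoters, and promoters that carry H3K4me3 together with H3K27me3 are called bivalent. Foxa1 and Foxa2 bind enhancers of endoderm-derived epithelia and can bind closed chromatin.

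Read totals in autosomal H3K27ac islands were 45.0 M (positive tumors) and 30.7 M (deleted tumors), with M for mega. They were 35.3 M and 29.4 M for H3K4me1, 28.3 M and 19.2 M for H3K4me3, and 17.6 M and 19.3 M for H3K27me3. The deleted-tumor islands thus held fewer reads for the 3 activity marks and more for H3K27me3. Library depth was not measured here. Foxa1/2 peaks numbered 22611 in positive and 14282 in deleted tumors on autosomes. Shares are given with 95% Wilson intervals, differences between sets with Newcombe intervals and changes at the same islands with Wald intervals. All cover counting error only and treat neighbouring islands as independent. No replicate check exists and no p-value was computed, so the number of autosomes that show a direction is given instead.

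The Polycomb-site islands were mostly small, with few reads. Their width ran from 200 to 12200 bp with a median of 1400 bp, and their H3K27ac read count from 21 to 1795 with a median of 70. The other 5473 new islands had the same median width, 1400 bp, and a median of 65 reads. The 5088 autosomal H3K27ac islands that were kept in both tumor types and also overlapped positive-tumor H3K27me3 were wider, with a median of 2000 bp, and held a median of 128 reads. The nearest positive-tumor H3K27ac lay a median of 11000 bp from a Polycomb-site island, 85 lay less than 1000 bp from one and 3 of these touched one. The regions occurred on every autosome and made up between 10.6% of the new islands on chromosome 16 and 27.4% on chromosome 9 (93 of 339).

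H3K27me3 remained at most of these sites, so the word "former" in a working name for them does not hold: a deleted-tumor H3K27me3 island overlapped 954 of 1057 (90.3%, interval 88.3 to 91.9). The other 103 (9.74%) had none, and they made up 1.58% of all new islands. Because every region had H3K27me3 in positive tumors by the rule, this count could only stay or drop. Of all autosomal deleted-tumor H3K27ac islands, 13.2% overlapped deleted-tumor H3K27me3. Of all 48977 autosomal positive-tumor H3K27me3 islands, 82.8% overlapped one in deleted tumors. Of the kept H3K27ac islands under H3K27me3, 93.7% did, and the Polycomb-site islands differed from them by -3.47 points (interval -5.51 to -1.69, higher on 2 of 19 autosomes). The share by chromosome ran from 81.1% on chromosome 10 to 95.9% on chromosome 5.

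The overlap was broad and not a matter of edges. The positive-tumor H3K27me3 covered 743 islands from end to end, and the deleted-tumor H3K27me3 covered 746. Over all their bases, cover was 82.1% in positive and 77.4% in deleted tumors. Cover was equal at 665 islands. It was smaller in deleted tumors at 215 (20.3%), against 16.9% of kept islands under H3K27me3. Of all new islands, most of which had no H3K27me3 to lose, 3.29% had smaller cover. Cover was larger at 177 (16.7%), against 7.43% of all new islands and 24.5% of kept islands under H3K27me3. It was smaller by 50 points or more at 106 (10.0%, against 1.62% and 5.11%). The mean difference in cover was -4.77 points, against 0.97 points at the kept islands under H3K27me3. Islands fully covered in positive tumors could only stay equal or fall, and these were 70.3% of the Polycomb-site islands and 63.1% of the kept ones. What part this has in the cover differences was not tested. Near the limit of the rule, 173 islands shared 600 bp or less with positive-tumor H3K27me3, and 142 of them (82.1%) had the mark in deleted tumors. Just outside, 119 new islands lay within 600 bp of positive-tumor H3K27me3 without touching it, and 66 of these (55.5%) had it in deleted tumors. Of the 743 fully covered islands, 702 (94.5%) had it.

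**Figure D1:**
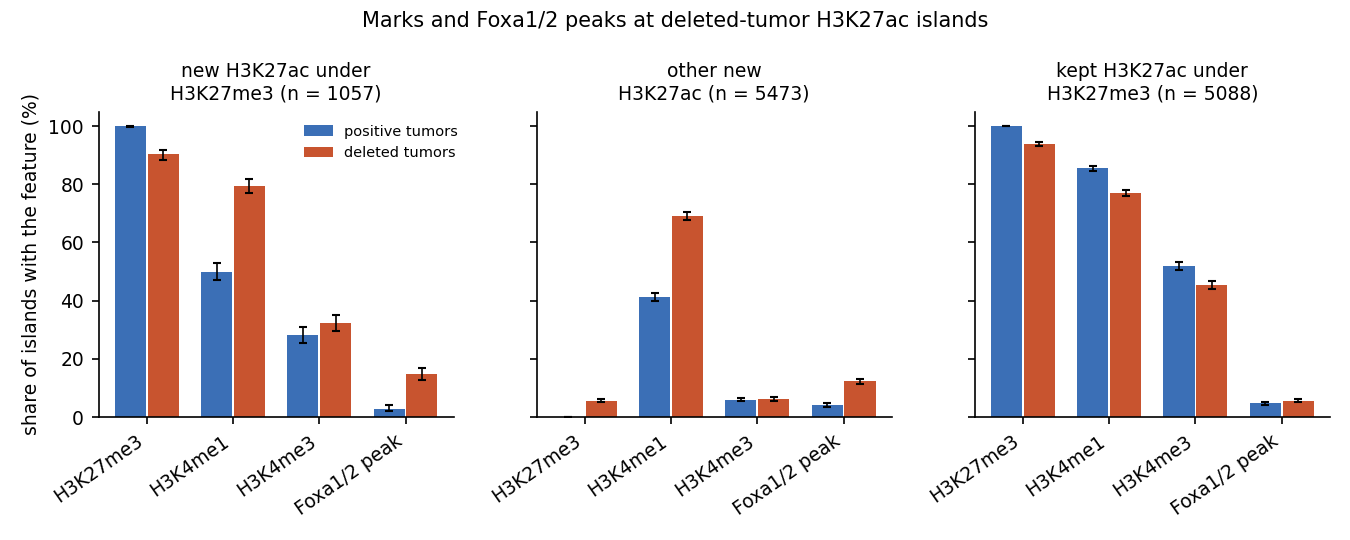
Share of H3K27ac islands (y axis, percent) that overlapped each mark or a Foxa1/2 peak in positive (blue) and deleted (red) tumors, for the 1057 Polycomb-site islands, 5473 other new islands and 5088 kept islands under H3K27me3, with 95% Wilson intervals as bars. At the Polycomb-site islands H3K27me3 was at 90.3% in deleted tumors, and H3K4me1 stood at 50.0% in positive and 79.4% in deleted tumors; the 100% and 0% of H3K27me3 in positive tumors come from how the sets were chosen.

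The H3K27me3 islands of positive tumors that held the new H3K27ac are called host islands. There were 932 of them, with a median width of 8700 bp against 6000 bp for all, and 893 (95.8%, interval 94.3 to 96.9) overlapped H3K27me3 in deleted tumors. Of the hosts, 811 held 1 Polycomb-site island and 121 held more, up to 5. Within the hosts, 85.7% of the bases inside the new H3K27ac islands still lay under H3K27me3 in deleted tumors, and 93.8% of the bases elsewhere in the same hosts. The difference was -8.08 points (SD 5.69 over 19 autosomes) and it was below 0 on 19 of 19 autosomes, from -0.37 to -23.6 on chromosome 15. Without chromosome 15 it was -6.90. In hosts of kept H3K27ac islands, the same comparison gave 91.8% inside and 93% elsewhere, a difference of -1.21 points.

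This base-weighted difference rested on a minority of hosts. Among 925 hosts with bases on both sides, the share kept was lower inside the new H3K27ac in 156, higher in 345 and equal in 424, of which 385 were fully kept. The new H3K27ac islands therefore lay in H3K27me3 that was mostly retained, with large local losses in a limited number of hosts. Island edges were not compared separately.

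**Figure D2:**
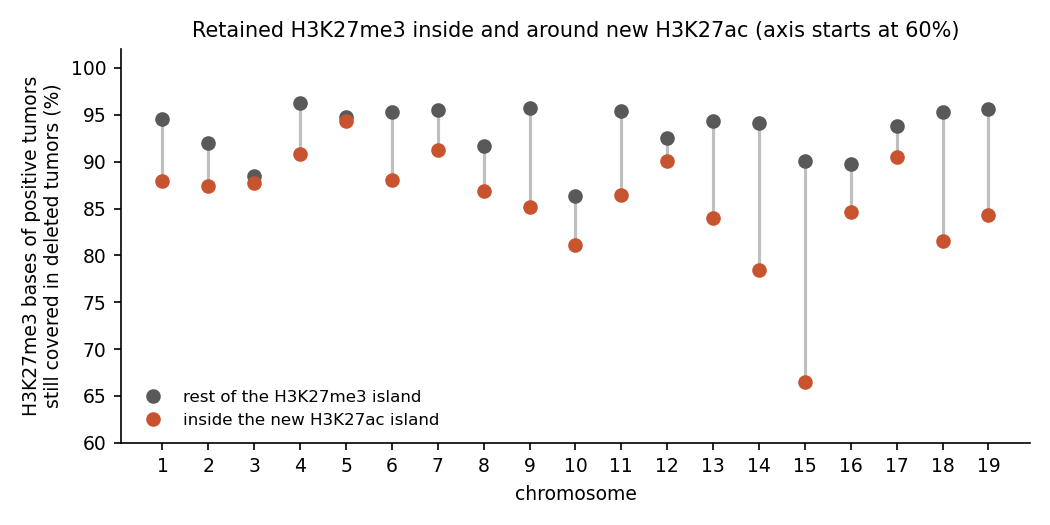
Share of positive-tumor H3K27me3 bases still under H3K27me3 in deleted tumors (y axis, percent, starting at 60) on each autosome (x axis), inside the new H3K27ac islands (red) and in the rest of their host islands (grey). The red point lies below the grey one on 19 of 19 autosomes, by 0.37 points at the least and by 23.6 on chromosome 15.

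Cover by H3K27me3 was highest near the island centres in both tumor types, but the order of the tumor types there differed from that farther out. At the centre, 86.8% of the Polycomb-site islands lay under H3K27me3 in positive and 81.6% in deleted tumors. At 5 kb to the left the order was the other way, 61.1% and 68.2%, and at 5 kb to the right 62.4% and 68.0%. The rule itself favours positive-tumor H3K27me3 at the centre, and what part this has in the order was not tested. At the kept islands under H3K27me3, also chosen on positive-tumor H3K27me3, the deleted tumors were higher by less at the centre (82.5% and 83.8%) than at 5 kb to the left (62.1% and 68.9%). H3K4me1 had a narrow maximum at the centre, with 44.1% in positive and 76.0% in deleted tumors, against 12.6% and 17.8% at 5 kb to the left. H3K4me3 at the centre was 26.0% and 28.0%.

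**Figure D3:**
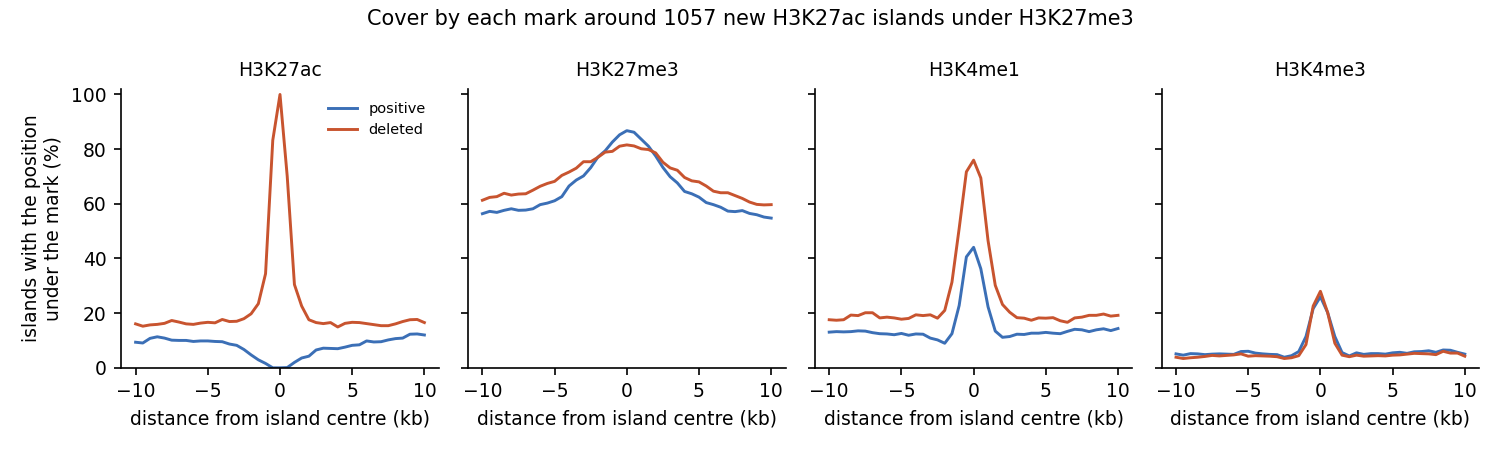
Share of the 1057 Polycomb-site islands (y axis, percent) whose position at each distance from the island centre (x axis, kb) lay under H3K27ac, H3K27me3, H3K4me1 or H3K4me3 in positive (blue) and deleted (red) tumors. H3K27me3 in deleted tumors was below that in positive tumors at the centre (81.6% and 86.8%) and above it at 5 kb on either side; the H3K27ac panel shows only what chose the islands.

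Choosing on positive-tumor H3K27me3 favours a drop, so all 6530 new islands were also counted without that choice. H3K27me3 was called in positive tumors only at 103 new islands and in deleted tumors only at 308. Of the 411 with the mark in 1 tumor type, 25.1% thus had it in positive tumors (interval 21.1 to 29.5). At kept H3K27ac islands that share was 14.0% (319 against 1959). At H3K27ac islands of positive tumors that were lost it was 22.2% (270 against 945). At new, kept and lost islands alike, H3K27me3 was thus called more often in deleted tumors alone than in positive tumors alone. The order is therefore not particular to new H3K27ac. The share with the mark in positive tumors was higher at new islands than at kept ones (interval 12.6 to 15.5 at kept islands). In the mirror case, 3653 lost H3K27ac islands lay under deleted-tumor H3K27me3, and 2708 of them (74.1%, interval 72.7 to 75.5) had H3K27me3 in positive tumors too. The same held for 4769 of 6728 kept and 954 of 1262 new islands under deleted-tumor H3K27me3, so it is not particular to lost islands.

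H3K4me1, the enhancer mark, was called at 528 Polycomb-site islands in positive tumors (50.0%) and at 839 in deleted tumors (79.4%). Over all new islands the shares were 42.7% and 70.8%. At the same Polycomb-site islands the difference was 29.4 points (interval 26.5 to 32.3, higher in deleted tumors on 19 of 19 autosomes). With the upper 50% of each H3K4 list by read count it was 18.7 points, and with the upper 50% of the deleted-tumor H3K27ac list 42.3 points. Of 529 islands without it in positive tumors, 322 had it in deleted tumors (60.9%), while 11 of 528 had it in positive tumors alone. Over all new islands, 29.8% had it in deleted tumors alone and 1.72% in positive tumors alone, and the 322 were 30.5% of the Polycomb-site islands. The share of bases under H3K4me1 was 32.6% in positive and 70.7% in deleted tumors. The other new islands differed by 27.8 points, from 41.3% to 69.1%, close to the Polycomb-site islands. At kept islands under H3K27me3 the order was the other way, 85.4% in positive and 77.0% in deleted tumors, a difference of -8.37 points. Unlike the kept islands, all new islands were chosen for H3K27ac in deleted tumors only. That choice may favour a higher H3K4me1 share in deleted tumors, and what part it has was not tested.

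H3K4me3, the promoter mark, was already present in positive tumors at 298 Polycomb-site islands (28.2%) and was called in deleted tumors at 340 (32.2%). The shares over all new islands were 9.6% and 10.4%. Other new islands had it at 6.01% and 6.14%, so the Polycomb-site islands held it more often by 22.2 points in positive tumors (interval 19.5 to 25, 19 of 19 autosomes). The kept islands under H3K27me3 had it at 52.0% and 45.4%. The change at the Polycomb-site islands was small, 3.97 points (interval 2.51 to 5.44), and it was positive on 16 autosomes and negative on 1. It rested on 53 islands with the mark in deleted tumors alone (5.01%) and 11 with it in positive tumors alone, against 1.85% and 1.1% of all new islands. With the upper 50% of each H3K4 list by read count it turned to -2.65 points, and with the upper 50% of the deleted-tumor H3K27ac list it was 11.6 points, so its direction depends on which islands are counted.

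Both H3K4 marks together sorted the islands into a few states. In positive tumors 524 had neither mark, 235 had H3K4me1 alone, 293 had both and 5 had H3K4me3 alone. Of those with neither, 304 had H3K4me1 alone in deleted tumors and 202 stayed without either. Of those with both, 282 had both in deleted tumors too, and of those with H3K4me1 alone, 194 kept it alone and 32 added H3K4me3. A new H3K4me1 call without H3K4me3 was thus the course of 28.8% of the Polycomb-site islands, and of 29.0% of other new islands. No H3K4 call in either tumor type was the course of 19.1% and 28.9%. Both marks in both tumor types made up 26.7% of the Polycomb-site islands and 4.44% of other new islands.

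The 340 islands with deleted-tumor H3K4me3 differed from the 717 without it in more than that mark. Their median width was 1200 bp, against 1600 bp. Positive-tumor H3K4me1 lay at 93.5% of them against 29.3%. H3K27me3 stayed at 95% against 88.0%, a difference of 6.99 points (interval 3.4 to 10.2, higher on 15 of 19 autosomes). A deleted-tumor Foxa1/2 peak lay in 9.12% of them against 17.3%, a difference of -8.18 points (interval -12.1 to -3.79). These shares were not compared at matched width, and Foxa1/2 peaks were found more often in wider islands. H3K27me3 together with H3K4me3 in positive tumors is the combination called bivalent, and whether these islands lay at annotated promoters was not analysed here.

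Foxa1/2 peaks of deleted tumors lay in 155 Polycomb-site islands (14.7%, interval 12.7 to 16.9). The share was 12.6% over all new islands and 17.0% over all autosomal deleted-tumor H3K27ac islands. It was 12.2% at other new islands, lower by 2.42 points (interval 0.23 to 4.83, 12 of 19 autosomes). That interval reached 0 when at least 50% of an island had to lie under H3K27me3 (1.66, interval -0.58 to 4.17), and when no positive-tumor H3K27ac was allowed at less than 1000 bp (1.28, interval -1.07 to 3.86). With the upper 50% of the deleted-tumor H3K27ac list by read count, which left 189 Polycomb-site islands, the share was 41.3% and the difference 5.64 points (interval -2.10 to 13.6). At the kept islands under H3K27me3 the share was 5.66%, lower by 9.0 points (interval 6.89 to 11.3, 18 of 19 autosomes). In positive tumors, Foxa1/2 peaks lay in 30 of the Polycomb-site islands (2.84%), against 3.89% of all new islands and 22.2% of all autosomal deleted-tumor H3K27ac islands. A peak in deleted tumors alone was found in 134 (12.7%) and in positive tumors alone in 9, against 9.68% and 0.934% of all new islands. Nkx2-1 peaks lay in 22 (2.08%), against 1.67% of all new islands and 28.0% of all autosomal deleted-tumor H3K27ac islands. Few new islands, with or without H3K27me3, had an Nkx2-1 peak in positive tumors. New islands lack positive-tumor H3K27ac by the rule. They were also narrower than all autosomal deleted-tumor H3K27ac islands (median 1400 and 2200 bp). What part this has in the low shares of positive-tumor peaks was not tested.

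The peaks in question were mostly specific to deleted tumors. Of 155 peaks, 134 (86.5%, interval 80.2 to 91.0) overlapped no Foxa1/2 peak of positive tumors. That share was 75.1% for peaks in other new islands, 49.9% for those in kept islands under H3K27me3 and 32.9% for all 14282. All new islands were chosen for lacking positive-tumor H3K27ac, which may favour peaks absent from positive tumors. What part this has in the higher shares was not tested. Of the islands with a peak, 151 overlapped 1 and 4 overlapped 2, and 4 of the peaks spanned 2 islands. The authors' peak score had a median of 145 (range 61 to 2544), close to the 152 of all peaks. The summit lay a median of 333 bp from the island's centre.

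At the summits, 125 of 155 (80.6%) lay under positive-tumor H3K27me3 and 65.2% under deleted-tumor H3K27me3. The first of these shares follows from the choice of the islands. The second depends on it too, since 85.7% of the positive-tumor H3K27me3 bases inside the islands were kept. Among all deleted-tumor Foxa1/2 peaks, which were not so chosen, 3.27% of summits lay under H3K27me3 in positive and 3.75% in deleted tumors. H3K4me1 covered 66 of the 155 summits in positive tumors (42.6%) and 147 in deleted tumors (94.8%), and H3K4me3 13 and 23. In deleted tumors, Foxa1/2 summits in these islands were thus mostly under H3K4me1 and mostly under H3K27me3. Choosing the islands on positive-tumor H3K27me3 favours a lower H3K27me3 share in deleted tumors, so that order is not a result.

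Islands with a Foxa1/2 peak were wider and held more H3K27ac reads than those without. Their median width was 2800 bp and their median read count 172. H3K4me1 stood at 74 of the 155 in positive tumors (47.7%), close to the 50.3% of islands without a peak, and at 148 in deleted tumors (95.5%), against 76.6%. The deleted-tumor difference was 18.9 points (interval 13.6 to 22.6, 18 of 19 autosomes). At widths of at least 2400 bp it was 6.17 points and did not exceed counting error (97.7% and 91.5%, interval -0.55 to 11.9). At 1000 to 1400 bp it was 27.4 points (interval 14.6 to 32.3), at 1600 to 2200 bp 16.6 points (interval 0.14 to 25.6) and under 1000 bp, with 11 islands with a peak, 5.91 points (interval -24.2 to 20.7). Of 81 lacking H3K4me1 in positive tumors, 91.4% had it in deleted tumors, against 55.4% of islands without a peak. H3K27me3 remained at 87.1% of them and at 90.8% of the others, a difference of -3.70 points that did not exceed counting error (interval -10.1 to 1.15). Its cover was smaller in deleted tumors at 34.8% of islands with a peak and at 17.8% of those without. It was larger at 20.0% and 16.2%. These cover shares were not compared at matched width, and islands without a peak had a median width of 1400 bp.

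Pooled over bases, less of the H3K27me3 was kept inside islands with a Foxa1/2 peak, but this was not the case on most autosomes. In hosts of islands with a peak, 78.5% of bases were kept inside and 92.2% elsewhere, a difference of -13.7 points. In hosts of islands without a peak the values were 87.9% and 94.3%, a difference of -6.38 points. The difference was lower with a peak than without on 9 of 19 autosomes, and without chromosome 15 the values were -11.5 and -5.53 points. The share kept was lower inside than elsewhere in 43 of 152 hosts with a peak (28.3%) and higher in 57 (37.5%), and in the 800 hosts without a peak lower in 14.4% and higher in 37.4%. At widths of at least 2400 bp, 77.8% of bases were kept inside and 91.5% elsewhere for 86 islands with a peak, and 87.2% and 94.6% for 153 without. There the difference was lower with a peak on 11 of 19 autosomes. Pooled bases and autosomes thus gave different pictures, and read depth was not matched.

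How often a peak was found went with island width. At the Polycomb-site islands the Foxa1/2 share was 6.21% under 1000 bp, 7.33% at 1000 to 1400 bp, 11.6% at 1600 to 2200 bp and 36% at 2400 bp or wider. Other new islands had 7.20%, 6.98%, 13.3% and 27.3%. The difference from other new islands exceeded counting error only in the widest class, where it was 8.66 points (interval 2.17 to 15.5). Against kept islands under H3K27me3 the differences were 4.85, 5.72, 10.5 and 25 points in the same order, and each interval lay above 0. The deleted-tumor H3K4me3 share was 45.2% at the narrowest and 24.3% at the widest Polycomb-site islands, and it was also lower at wider islands among other new islands, 10.2% and 3.98%. At kept islands under H3K27me3 it was 37.2% and 53.5%.

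**Figure D4:**
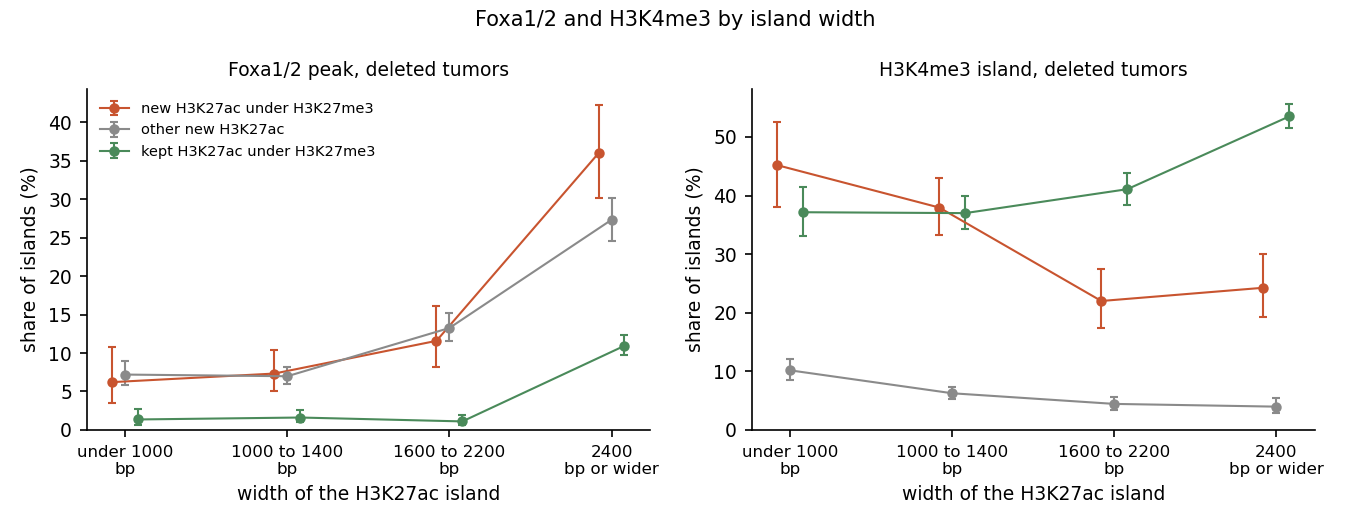
Share of islands (y axis, percent, with 95% Wilson intervals) with a deleted-tumor Foxa1/2 peak (left) or H3K4me3 island (right) by width of the H3K27ac island (x axis), for Polycomb-site islands (red), other new islands (grey) and kept islands under H3K27me3 (green). Among Polycomb-site islands the Foxa1/2 share was 6.21% in the narrowest and 36% in the widest class, and the H3K4me3 share 45.2% and 24.3%.

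The read count of the H3K27ac island went with the same features. In 4 groups of nearly equal size by read count, from the lowest to the highest, Foxa1/2 peaks lay in 4.55%, 8.71%, 11.4% and 34.0%. Deleted-tumor H3K4me1 lay at 66.3% of the lowest and 95.8% of the highest group. H3K27me3 remained, by overlap of at least 1 bp, at 92.8% of the lowest and 88.7% of the highest. By bases, its cover was 92.6% in positive and 89.2% in deleted tumors in the lowest group. In the highest group it was 75.3% and 70.6%. The median width was 800 bp in the lowest and 3200 bp in the highest group, and read count was not separated from width.

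The 103 islands without deleted-tumor H3K27me3 had less H3K27me3 cover and fewer H3K4 marks to begin with. Positive-tumor H3K27me3 lay over 63.4% of their bases, against 84.2% for the 954 others. It covered 39.8% of the 103 from end to end, against 73.6%. In positive tumors H3K4me1 lay at 34.0% of them against 51.7% of the 954 others, a gap of 17.7 points (interval 7.61 to 26.7). H3K4me3 lay at 11.7% against 30%. In deleted tumors H3K4me1 stood at 76.7% and 79.7%, so the difference between tumor types was 42.7 points at the 103 and 28.0 at the others. Foxa1/2 peaks of deleted tumors lay in 19.4% and 14.2%, within counting error. Nkx2-1 peaks of positive tumors lay in 6 of the 103 (5.83%) and in 16 of the 954 (1.68%). The 954 differed from the 103 by -4.15 points (interval -10.5 to -0.85) and were higher on 8 of 19 autosomes. With 6 such islands among the 103, at most 6 autosomes could hold one, so the count of autosomes cannot weigh this difference.

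The widest island, chr15:95859401-95871600 on build mm9, spanned 12200 bp with 1422 H3K27ac reads. H3K27me3 covered 80.3% of it in positive and 37.7% in deleted tumors, while H3K4me1 covered 11.5% and 47.5%. It held 2 Foxa1/2 peaks of deleted tumors, with scores 68 and 239, and none of positive tumors. It is an example of partial loss. The left edge of H3K27me3 lay inside the new H3K27ac in both tumor types. Relative to the island centre it was at -3.7 kb in positive and at 1.5 kb in deleted tumors.

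The island with most H3K27ac reads, 1795, lay at chr17:25886201-25896200 and behaved differently. H3K27me3 covered 64% of it in positive and 98% in deleted tumors. H3K4me1 covered 0% and 98%, and H3K4me3 0% and 36%. A Foxa1/2 peak with a score of 86 was called in deleted tumors. Here every mark measured was called over more of the island in deleted tumors.

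**Figure D5:**
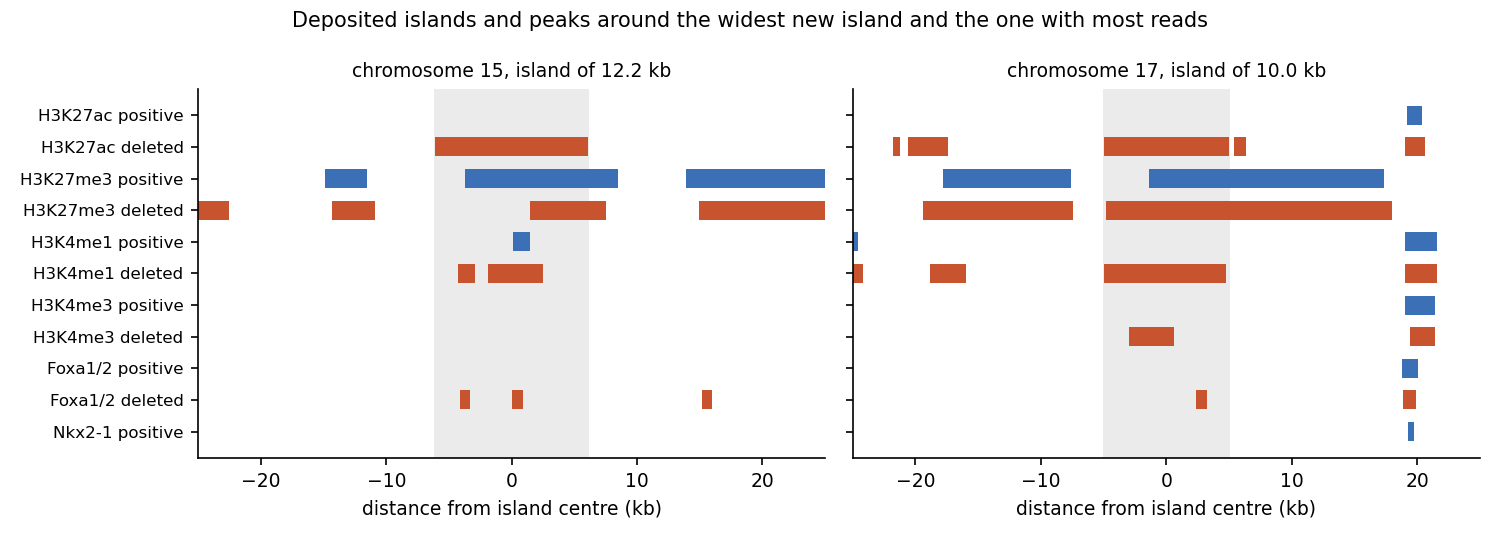
Deposited islands and peaks (bars, blue for positive and red for deleted tumors) within 25 kb of the centre (x axis, kb) of the widest Polycomb-site island (left) and of the one with most H3K27ac reads (right), with the island in grey. H3K27me3 covered 37.7% of the left and 98% of the right island in deleted tumors.

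Other wide or well-read islands varied in how much H3K27me3 they kept. At chr14:34893801-34904600 (1330 reads), H3K27me3 covered 92.6% in positive and 100% in deleted tumors, H3K4me1 11.1% and 51.9%, H3K4me3 0% and 24.1%, and a Foxa1/2 peak scored 1437. At chr12:75186801-75197200 (973 reads), H3K27me3 covered 80.8% and 76.9% and H3K4me1 0% and 38.5%, with a Foxa1/2 score of 263. At chr5:115413801-115421800 (1174 reads), H3K27me3 covered 100% and 95%, H3K4me1 42.5% and 97.5% and H3K4me3 30% and 70%, with Foxa1/2 scores of 79 and 111. In these 3, H3K27me3 stayed over at least 76.9% of the island while H3K4me1 was called over more of it. At chr15:74097801-74107600 (1096 reads), by contrast, H3K27me3 covered 63.3% in positive and 10.2% in deleted tumors, while H3K4me1 covered 0% and 38.8%, with a Foxa1/2 score of 86. The nearest positive-tumor H3K27ac lay 394400 bp away.

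A further 5 islands were named for a Foxa1/2 peak of deleted tumors and no H3K27me3 there, and in them H3K4me1 covered more in deleted tumors. The island chr7:107448401-107459800 (959 reads) had little H3K27me3 to lose, 3.51% in positive tumors. Its H3K4me1 cover was 26.3% and 80.7%, its Foxa1/2 score 2244, and positive tumors had a Foxa1/2 peak there too. The other four had none. At chr9:66571401-66576800 (647 reads) the positive-tumor H3K27me3 cover was 37.0%, the H3K4me1 cover 33.3% and 74.1%, and the Foxa1/2 score 670. At chr7:120871401-120877000 (581 reads) the values were 17.9%, 0% and 78.6%, and 2544. At chr9:64954201-64958400 (483 reads) they were 42.9%, 71.4% and 85.7%, and 1068. Only chr1:108345201-108348800 (317 reads) had been under H3K27me3 from end to end, 100% in positive tumors and 0% in deleted tumors. There H3K4me1 covered 0% and 94.4%, and the Foxa1/2 score was 175.

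Some Polycomb-site islands lay near each other. When islands less than 50 kb apart were joined, 543 stood alone and 514 formed 192 runs, of which 13 held 5 or more. The host islands with most members were among them. The host chr6:54011001-54103400, 92400 bp wide, held 5, all of which kept H3K27me3, with 92.5% of bases kept inside them and 98.8% elsewhere. The host chr15:74034001-74063200, 29200 bp wide, held 5, of which 3 kept H3K27me3, with 61.8% of bases kept inside and 90.1% elsewhere. H3K4me1 lay at 1 of these in positive and at 4 in deleted tumors. The host chr9:45171801-45193600, 21800 bp wide, held 5 that all kept some H3K27me3, with 81.0% kept inside and 100% elsewhere, and H3K4me1 lay at 2 in positive and 4 in deleted tumors.

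The 5 islands of the host on chromosome 15 belonged to a run of 10 between 74028601 and 74149400, which also held the island 394400 bp from positive-tumor H3K27ac. Of these 10, 7 kept H3K27me3, 1 had H3K4me1 in positive and 8 in deleted tumors, 1 had a Foxa1/2 peak and none had H3K4me3. A run of 10 on chromosome 6, from 54017201 to 54179000, included the 5 of the host there and kept H3K27me3 at all 10, with H3K4me1 at 6 in positive and 7 in deleted tumors. These runs were singled out after their values had been seen.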

How the data were processed

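Islands of 4 histone marks and peaks of Foxa1/2 and Nkx2-1 were used as the authors deposited them, on build mm9. Bowtie, MACS 1.4.2 and SICER 1.1 are listed in the submitters' processing notes, which do not say what each was used for. Per the file headers and list names, peaks were called at p 1e-06 and islands at FDR 0.01 with 200 bp windows. The allowed gap was 200 bp for H3K27ac and H3K4me3, and 600 bp for H3K4me1 and H3K27me3. Each deposited island carries a read count, not scaled for depth, and each deposited peak the authors' peak score. Counts were used to rank within a list, to describe sets and to sum reads, and scores to describe peaks. Both files of each of 11 groups were identical, and nothing of the spread between animals can be seen. The 9 inputs were not used here.

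Island ends were read as the last base. Sets were compared by overlap of at least 1 bp, computed with Python 3.11.15, numpy 2.4.6 and pandas 2.3.3 and drawn with matplotlib 3.10.9. The overlap counting was tested on simulated data, where all 300 planted overlaps were found and 200 touching intervals were not counted. The regions, comparisons and lists were chosen with earlier results of these data known. Alternatives changed the overlap, the distance to other H3K27ac, the width, the part of each list used and the reading of the end column. Named regions were the 5 widest, the 5 with most reads, the 5 with most reads among those with Foxa1/2 and without H3K27me3 in deleted tumors, and the 3 host islands with most members. No genome or annotation of mm9 was used, so regions were assigned to no gene, no sequence was read, and the planned gene lists were not used here.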

Additional observations from a re-analysis of the deposited data

How the results depend on the processing

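For 8 results, 61 values were recomputed under other settings: 51 stayed within the main interval (for the number of islands within 1.5 times, for H3K27me3 bases within 1 SD over chromosomes), 9 moved and 1 turned its sign. With the upper 50% of each H3K4 list by read count, the H3K4me3 difference turned from 3.97 to -2.65 points and the H3K4me1 difference was 18.7. With Foxa1/2 summits required inside the island, the Foxa1/2 share was 12.3%. With the upper 50% of each H3K27me3 list, the share of 1-tumor-type H3K27me3 calls that were in positive tumors was 19.9%. With the upper 50% of the deleted-tumor H3K27ac list by read count, 189 islands remained, the H3K4me1 difference was 42.3 points, the H3K4me3 difference 11.6, the Foxa1/2 share 41.3%, its difference from other new islands 5.64 points (interval -2.10 to 13.6) and the share of 1-tumor-type H3K27me3 calls 32.7%. The causes were not tested. The settings without islands under the densest 1% of H3K27me3 islands (73 islands left out) and without chromosome 15 were chosen after seeing the data, and their values stayed within the main interval. No paired analysis was possible because both files of each group were identical, and leaving out a replicate was not run for the same reason. Library depth was not measured here, and reads inside islands were fewer in deleted tumors for H3K27ac, H3K4me1 and H3K4me3, so whether an island missing from a list was only uncalled was not tested.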
